A study of Mus musculus with 39 samples.

Results

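Steroid hormone synthesis in the testis was followed through 9 Leydig cell genes, Star, Cyp11a1, Cyp17a1, Hsd3b1, Hsd3b6, Hsd17b3, Insl3, Lhcgr and Nr5a1. They were chosen by symbol from the 32285 genes of the single-cell tables, and each symbol matched 1 gene. The study profiled cells of whole mouse testis by droplet RNA-seq in 1 control library (Kdm6a fl/y, without Cre) and 1 conditional knockout (cKO) library (Kdm6a fl/y with Ddx4-Cre). Kdm6a, also called Utx, encodes an X-linked demethylase of histone H3. Both libraries carry the floxed allele, and the Cre is driven by Ddx4, a gene of germ cells, so that the labels place the deletion in germ cells and not in Leydig cells. The labels give neither the ages nor the number of animals in a library. With 1 library per genotype no difference between genotypes has a replicate check. All intervals are 95% intervals that cover counting error only.

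Leydig cells lie between the seminiferous tubules and make testosterone from cholesterol under the control of luteinizing hormone. The hormone binds LHCGR, STAR brings cholesterol to the inner mitochondrial membrane, and CYP11A1, the HSD3B enzymes, CYP17A1 and HSD17B3 carry it on to testosterone. NR5A1, also known as SF-1, is a nuclear receptor that activates steroidogenic genes. INSL3 is a peptide hormone of Leydig cells that guides testis descent and lies outside the steroid pathway.

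Barcodes with at least 3000 UMIs (unique molecular identifiers, each 1 counted RNA molecule) were taken as cells, which gave 11252 control and 8520 cKO cells with a median of 8410.5 and 8499 UMIs. Barcodes with at least 300 and under 2000 UMIs, 58524 and 66902 of them, stood for free RNA. Cells were classed by marker lists that hold no member, and levels are given as CPM, a gene's UMIs per 1000000 UMIs of the class. A 3' tag is counted once per molecule, so these levels do not scale with gene length. Kdm6a itself was at 2.29 CPM over all control cells and 0.757 CPM over all cKO cells, though where the counted 3' tags lie relative to the deleted exons is not in the labels. In Leydig-like cells it rested on 13 and 7 UMIs, and the log2 ratio of cKO over control, -0.65, had an interval from -2.21 to 0.78. The libraries shared 30 cell barcodes, of which 1 was a Leydig-like cell of the control and 2 were Leydig-like cells of the cKO.

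The Leydig-like gate asked for at least 3 of 10 marker genes and at least 10 UMIs of them. It held 101 control cells, or 0.898% of cells (0.732% to 1.09%), and 99 cKO cells, or 1.16% (0.945% to 1.41%), and these intervals overlap. The tubules were spun down and the supernatant removed before the cells were freed, per the labels' protocols, so these are shares of the cells that were kept. Of the 10 gate markers 9 were seen in both libraries, led by Fabp3 at 8260 and 8903 CPM, while Hsd11b1, an enzyme known from adult Leydig cells, had 0 UMIs. The genes with the highest fold over all other cells included Lcn2, Insl3, Ptgds, Cyp17a1, Fabp3 and Cyp11a1. The median Leydig-like cell had 8291 UMIs in the control and 6746 in the cKO.

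Markers of other cell types were also counted within the gate. All 10 Sertoli markers were seen, with a summed level of 4660 CPM in the control and 4730 CPM in the cKO, most of it from Defb19 and Clu, while Sox9 and Wt1 stood at 3.2 to 5.0 CPM. All 7 macrophage markers were seen in the control and 4 of 7 in the cKO, at 127 and 20.1 CPM in sum. The stroma list summed to 65.9 and 110.8 CPM, with Lum and Igfbp5 at 0 in both libraries. The elongating spermatid markers Prm1, Prm2, Tnp1 and others summed to 22478 and 17275 CPM, against 79146 and 75171 CPM over all cells. Spermatocyte markers were higher in the Leydig-like cells of the cKO library, the early list at 214 CPM in the control and 456 CPM in the cKO and the late list at 210.3 and 388 CPM. Over all cells these lists stood at 1199 and 1152 CPM and at 918 and 917 CPM. The number of Leydig-like cells with a UMI did not rise for each marker. Sycp1 was seen in 34 control and 29 cKO cells and Sycp3 in 36 and 28, but Piwil1 in 27 and 34. The round spermatid list was at 455 and 389 CPM in the gate, while the peritubular myoid (9.56 and 23.9 CPM) and endothelial (6.37 and 30.2 CPM) lists were low. The spermatogonia list was at 359 and 261 CPM, most of it from Kit at 299 and 179 CPM. Its genes Sall4, Gfra1 and Stra8 were at 0 in both libraries. In the median Leydig-like cell the elongating spermatid markers made up 0.773% and 0.610% of UMIs, and 16 control and 8 cKO cells were over 2%. The part of spermatid RNA in the members' levels was not tested beyond leaving those cells out, and that of spermatocyte RNA was not tested.

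Insl3 and Cyp17a1 were among the 15 most abundant genes of this class in both libraries, whereas the other 7 members ranked from 33rd (Cyp11a1) to 1284th (Nr5a1) in the control and from 25th to 1353rd in the cKO. Together they took 2.31% of all UMIs of control Leydig-like cells and 2.06% of those of cKO Leydig-like cells, that is 23109 and 20615 CPM. In the free RNA of the same libraries they summed to 39.0 and 36.7 CPM. Of all member UMIs in cells, 95.2% (94.9% to 95.4%) in the control and 95.3% (94.96% to 95.6%) in the cKO lay in Leydig-like cells, which were about 1 cell in 100. The plot of levels by class shows this gap for each gene.

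**Figure D1:**
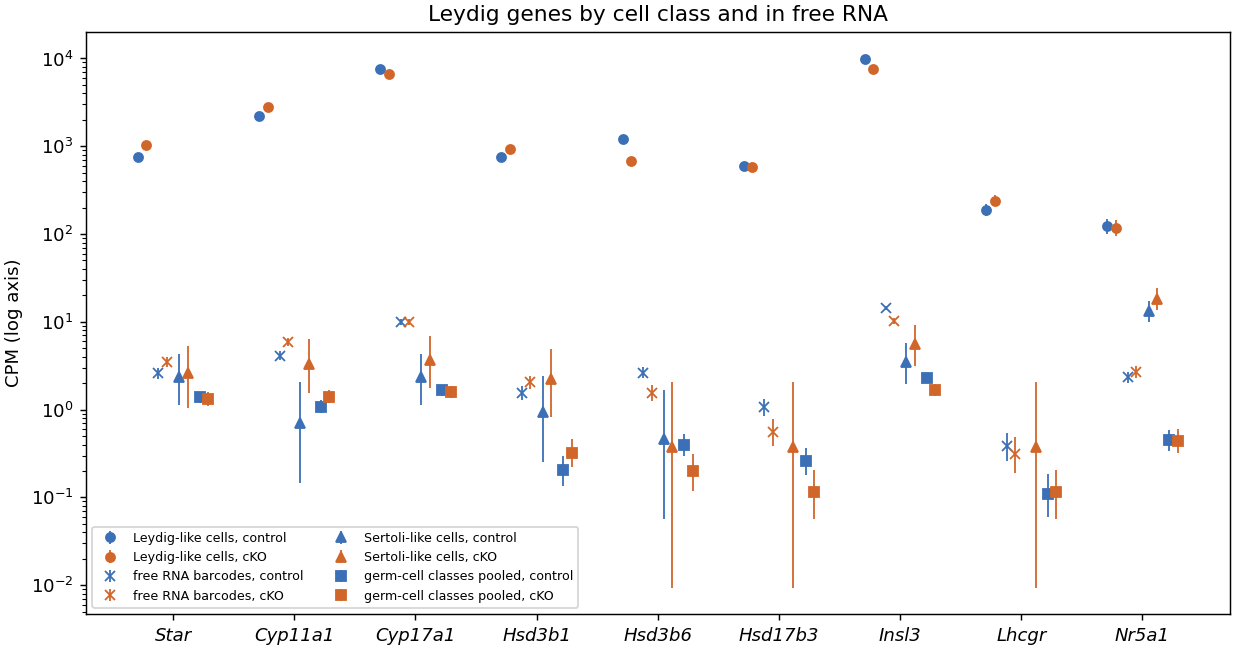
CPM on a log axis for the 9 genes in Leydig-like cells (circles), free RNA barcodes (crosses), Sertoli-like cells (triangles) and the germ-cell classes pooled (squares), control in blue and cKO in orange, with 95% Poisson intervals. Levels of 0 (Hsd17b3 and Lhcgr in control Sertoli-like cells) are not drawn. Every gene is highest in Leydig-like cells, and Nr5a1 alone is higher in Sertoli-like cells than in free RNA in both libraries.

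Insl3 was the most abundant member in both libraries, at 9739 CPM in control and 7533 CPM in cKO Leydig-like cells, and ranked 10th and 12th of all genes there. Per cell, its level ran from 6.21 to 193.8 UMIs per 10000 around a median of 97.1 in the control, and from 0 to 177.6 around 89.8 in the cKO. All 101 control cells and 97 of 99 cKO cells had at least 1 UMI of it. Its free RNA level was 14.3 and 10.2 CPM, so that Leydig-like cells were 680-fold and 736-fold above it.

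Cyp17a1, the enzyme that makes androgen precursors from progestins, followed at 7534 CPM in the control and 6701 CPM in the cKO. It was seen in 100 of 101 and 97 of 99 cells, with medians of 77.8 and 71.7 UMIs per 10000. Cyp11a1, which cuts the side chain of cholesterol and so opens the pathway, was at 2215 CPM in the control and 2823 CPM in the cKO. Its median cell held 19.4 UMIs per 10000 in the control and 30.9 in the cKO, and the cells of the libraries overlapped over nearly their whole range, 0 to 68.7 against 0 to 85.6.

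Star was at 748 CPM in the control and 1024 CPM in the cKO. It varied widely from cell to cell: the lower and upper quartiles were 2.86 and 9.5 UMIs per 10000 in the control and 3.49 and 16.3 in the cKO, and 12 and 13 cells had none. Hsd17b3, which makes testosterone from androstenedione, was nearly level between the libraries at 596 and 575 CPM. Its log2 ratio of cKO over control was -0.05, with an interval of -0.23 to 0.13.

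The receptor and the transcription factor were the least abundant members. Lhcgr stood at 189 CPM in the control and 240 CPM in the cKO, with medians of 1.43 and 2.0 UMIs per 10000. Nr5a1 stood at 122 CPM and 117 CPM, with medians of 1.11 and 0.97. At these levels a missing UMI says little: once every cell was thinned to 3000 UMIs, Lhcgr was seen in 44.6% (34.7% to 54.8%) of control and 46.5% (36.4% to 56.8%) of cKO cells and Nr5a1 in 30.7% (21.9% to 40.7%) and 31.3% (22.4% to 41.4%). Without thinning these shares were 76.2% and 73.7% for Lhcgr and 62.4% and 56.6% for Nr5a1.

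In order of level the control ran Insl3, Cyp17a1, Cyp11a1, Hsd3b6, Hsd3b1, Star, Hsd17b3, Lhcgr and Nr5a1. In the cKO library Star and Hsd3b1 stood ahead of Hsd3b6. Hsd3b1 and Star were neighbours in both orders that could not be separated by counting error, with a ratio of 1.02 in the control (log2 interval -0.13 to 0.18) and of 1.10 in the reverse order in the cKO (-0.01 to 0.28). All other neighbours in either order differed beyond counting error, which does not include any spread between cells or animals.

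**Figure D2:**
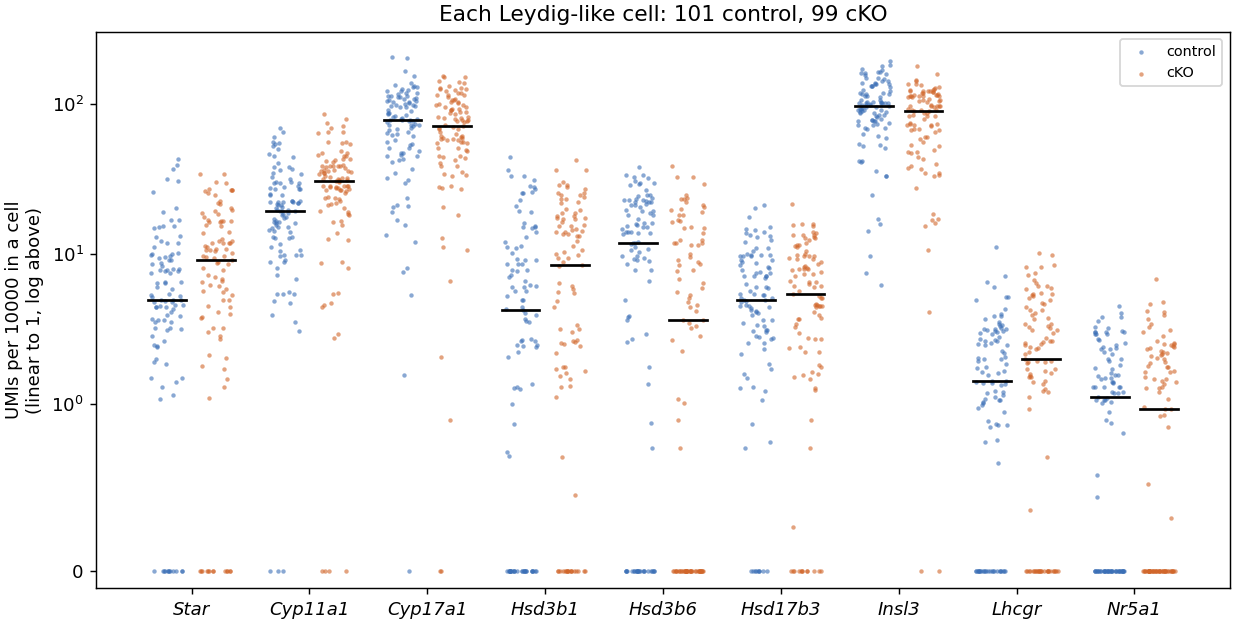
UMIs per 10000 in each Leydig-like cell (linear up to 1, log above), 101 control cells in blue and 99 cKO cells in orange, with the median as a black bar. Insl3 and Cyp17a1 are high in nearly every cell, whereas Hsd3b1 and Hsd3b6 each have many cells at 0 beside cells above 10.

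The 2 genes of 3-beta-hydroxysteroid dehydrogenase showed the pattern that set them apart from the rest. The HSD3B enzymes turn pregnenolone into progesterone, and Hsd3b6 is known as an isoform of the adult mouse Leydig cell. Both genes were abundant in the class, Hsd3b1 at 761 CPM in the control and 930 CPM in the cKO and Hsd3b6 at 1205 and 671 CPM. Yet 27 control and 18 cKO cells had no UMI of Hsd3b1, and 24 and 39 cells had none of Hsd3b6. The genes are close paralogs on the minus strand of chromosome 3. RefSeq places Hsd3b1 at chr3:98842356-98859794 and Hsd3b6 at chr3:98805504-98814443 (GRCm38.p6). The 250 bases before each start are shown 5′ to 3′ as read on that strand, chr3:98859795-98860044 for Hsd3b1 and chr3:98814444-98814693 for Hsd3b6, with the CCAAT motif in capitals where it occurs.
Hsd3b1: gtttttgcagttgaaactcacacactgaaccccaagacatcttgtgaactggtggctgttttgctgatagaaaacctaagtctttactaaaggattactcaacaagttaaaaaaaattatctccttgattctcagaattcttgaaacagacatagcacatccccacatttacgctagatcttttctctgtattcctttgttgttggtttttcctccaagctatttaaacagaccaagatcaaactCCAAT
Hsd3b6: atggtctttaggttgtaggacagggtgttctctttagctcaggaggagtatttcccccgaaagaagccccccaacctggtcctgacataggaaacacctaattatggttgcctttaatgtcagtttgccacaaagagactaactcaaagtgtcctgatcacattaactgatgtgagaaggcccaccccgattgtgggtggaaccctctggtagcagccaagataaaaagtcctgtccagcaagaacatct
In a global alignment of these stretches 146 of 296 columns (49.3%) were identical and 92 columns held a gap. No source used here says how the counting divided reads that fit both transcripts, so the levels of the 2 genes carry that uncertainty.

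Cell by cell, many Leydig-like cells had nearly all of the pair's UMIs from 1 of the 2 genes. Cells with at least 5 UMIs of the pair numbered 90 in the control and 88 in the cKO, with a median of 18 and 13 UMIs. In 53 control cells (58.9%, 48.0% to 69.2%) and 59 cKO cells (67.0%, 56.2% to 76.7%), over 90% of the pair's UMIs came from 1 gene. In 18 control and 33 cKO cells every UMI was from Hsd3b1, and in 21 and 14 cells every UMI was from Hsd3b6. Cells in which the genes were near balance, with 40% to 60% from Hsd3b6, numbered 8 and 5.

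The share of one-gene cells was higher for this pair than for other members of like abundance. Of the 36 pairs of members, 8 others also had a minor gene with at least 25% of the pair's UMIs in both libraries, a limit chosen after the values were seen. Under the same rule their share of one-gene cells ran from 3.96% to 31.7% in the control and from 1.03% to 35.5% in the cKO. Spearman's rho between Hsd3b1 and Hsd3b6 over the Leydig-like cells was -0.42 in the control (n = 101) and -0.65 in the cKO (n = 99), the lowest of all 36 pairs in both. The highest values were 0.44 for Hsd3b6 with Hsd17b3 in the control and 0.45 for Cyp11a1 with Cyp17a1 and with Insl3 in the cKO. Cells of 1 library share its depth and free RNA, so these values describe the libraries.

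**Figure D3:**
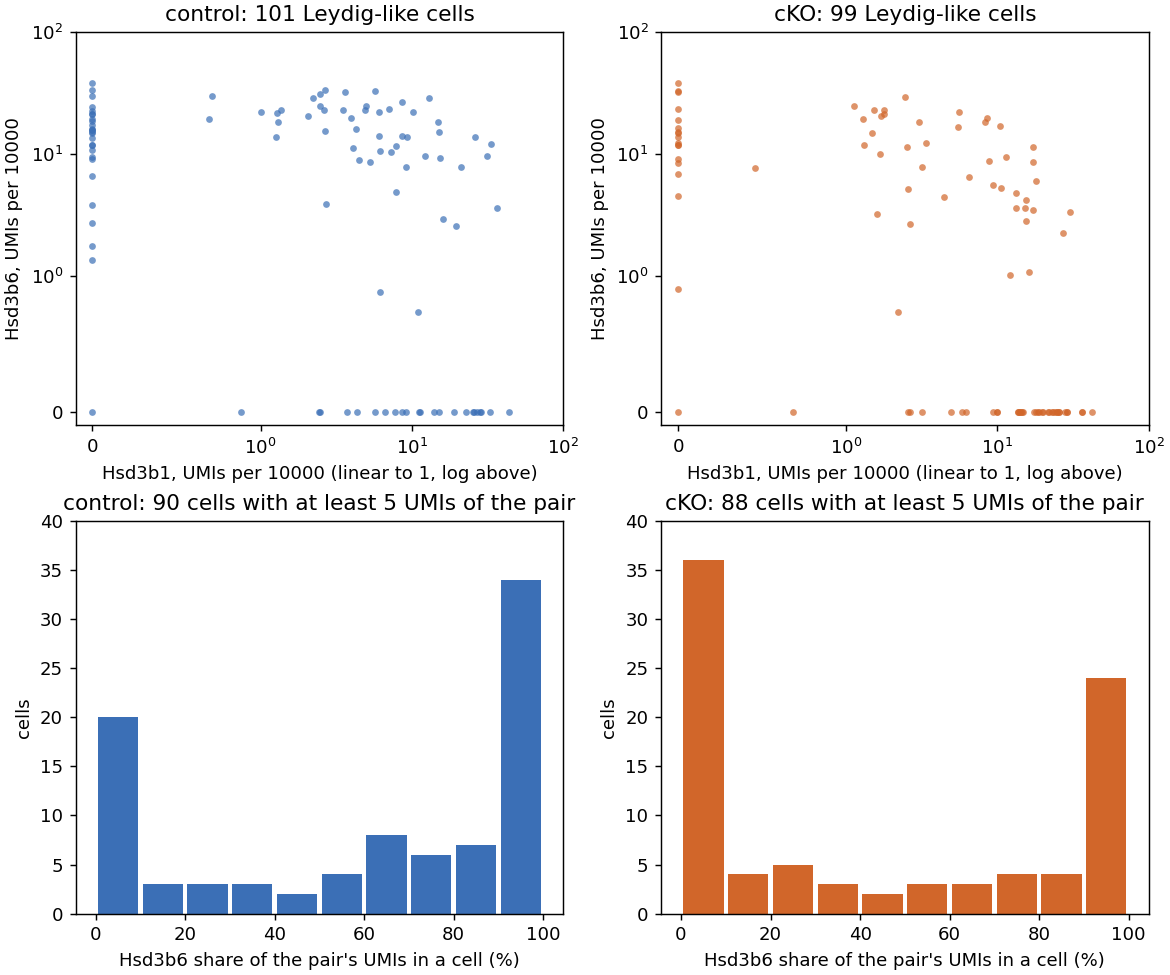
Top: Hsd3b1 against Hsd3b6 in each Leydig-like cell, in UMIs per 10000 (both axes linear up to 1 and log above). Bottom: number of cells by the share of Hsd3b6 in the pair's UMIs, in steps of 10%, for the 90 control and 88 cKO cells with at least 5 UMIs of the pair. The outermost bars are the tallest in both libraries, at 20 and 34 control and 36 and 24 cKO cells, where the last bar includes cells at exactly 90%.

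The cKO library held more cells on the Hsd3b1 side and fewer on the Hsd3b6 side, with intervals that overlap. Cells with over 90% from Hsd3b1 made up 22.2% (14.1% to 32.2%) of those counted in the control and 40.9% (30.5% to 51.9%) in the cKO. Cells with over 90% from Hsd3b6 made up 36.7% (26.8% to 47.5%) and 26.1% (17.3% to 36.6%). The pooled share of Hsd3b6 in the pair was 61.3% in the control and 41.9% in the cKO. The labels do not tie cells to animals, so whether the sides or their shares follow animals was not tested.

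The sides did not differ in a like way in any other member. Star was at 406 CPM on the Hsd3b1 side and 1010 CPM on the Hsd3b6 side of the control, but at 921 and 859 CPM in the cKO. Hsd17b3 was at 317 and 678 CPM in the control and 584 and 434 CPM in the cKO, and Insl3 at 7593 and 11624 CPM in the control and 7923 and 6911 CPM in the cKO. For all 7 other members the sign of the difference was opposite in the libraries, but only Hsd17b3 and Insl3 had intervals without 0 in both. The share of all genes with opposite signs was not counted. Median depth was 8996.5 UMIs on the Hsd3b1 side and 8050 on the Hsd3b6 side in the control, and 6897.5 and 6502 in the cKO.

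Over 1560 other genes with at least 100 UMIs on the sides together, 0 were at least 2-fold higher on the Hsd3b6 side in both libraries and 11 were at least 2-fold lower in both. Among the latter were Tssk1, Rnf151, Tsga8 and Tekt2, which stood at 779 to 1361 CPM in control round spermatid-like cells. In 1 library alone, 169 of these genes passed the same limit in the control and 87 in the cKO. Sult1e1, an estrogen sulfotransferase, was lower on the Hsd3b6 side in both libraries, with log2 ratios of -0.84 in the control and -1.07 in the cKO, and Cd36, a fatty acid receptor, was higher, with 0.95 and 0.92. Both were picked after their values were seen, and Sult1e1 belongs to the gate.

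Between the libraries, Hsd3b6 was the 1 member of 9 whose level in Leydig-like cells differed at least 1.5-fold. It was 1.80-fold lower in the cKO, with a log2 ratio of -0.84 (-0.99 to -0.69). Among all 5062 genes with at least 50 UMIs in these cells, 21.8% passed this limit, 11.4% lower and 10.4% higher in the cKO, and 1 of 9 members is not above that background. The other members spread to both sides of 0. Star, Cyp11a1, Lhcgr and Hsd3b1 were higher in the cKO library by 0.45, 0.35, 0.35 and 0.29 on the log2 scale, Insl3 and Cyp17a1 were lower with log2 ratios of -0.37 and -0.17, and the intervals of Hsd17b3 and Nr5a1 included 0. The median over the 9 members was -0.05, against -0.0043 over all genes of that comparison.

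Over all cells the members' sum was 172.1 CPM in the control and 173.4 CPM in the cKO. Hsd3b6 alone passed the limit of 1.5-fold there, at 8.94 CPM in the control and 5.61 CPM in the cKO, against 7.17% of 19100 genes in either direction and 5.17% lower in the cKO. Leydig-like cells held 95.5% of its UMIs over all cells in the control and 95.9% in the cKO, so these are largely the same counts. The share of Leydig-like cells and the level per cell both enter the levels over all cells. In free RNA Hsd3b6 was at 2.65 CPM in the control and 1.55 CPM in the cKO, and Hsd17b3 at 1.06 and 0.561 CPM, with log2 ratios of -0.77 (-1.14 to -0.41) and -0.92 (-1.54 to -0.33). The share of all genes past 1.5-fold in free RNA was not counted, so the members past it there have no background. The free RNA values moved with the choice of barcodes. For Hsd3b6 the log2 ratio was -0.35 (-1.83 to 1.10) in barcodes of 10 to under 300 UMIs and -0.32 (-1.34 to 0.87) in those of 300 to under 1000 UMIs, short of 1.5-fold, and -0.79 (-1.17 to -0.43) without barcodes that passed the Leydig-like gate. Hsd17b3 stayed past 1.5-fold in all 3 of these settings, though at -1.20 (-4.67 to 1.60) in barcodes of 10 to under 300 UMIs and -1.50 (-2.89 to 0.12) in those of 300 to under 1000 its intervals included 0. Insl3, at -0.48 (-0.63 to -0.34), passed 1.5-fold in 2 of the 3, at -0.77 in barcodes of 300 to under 1000 UMIs and -0.66 without gated barcodes. Cyp17a1, at -0.01, stood at 1.20 (0.28 to 2.20) in barcodes of 10 to under 300 UMIs and at -0.40 (-0.83 to 0.05) in those of 300 to under 1000. Cyp11a1 and Lhcgr passed the limit in 1 setting each, at 0.68 and 0.72 in barcodes of 300 to under 1000 UMIs, with intervals that included 0. The median mitochondrial share of Leydig-like cells was 8.29% in the control and 9.52% in the cKO, and its part in these differences was not tested.

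**Figure D4:**
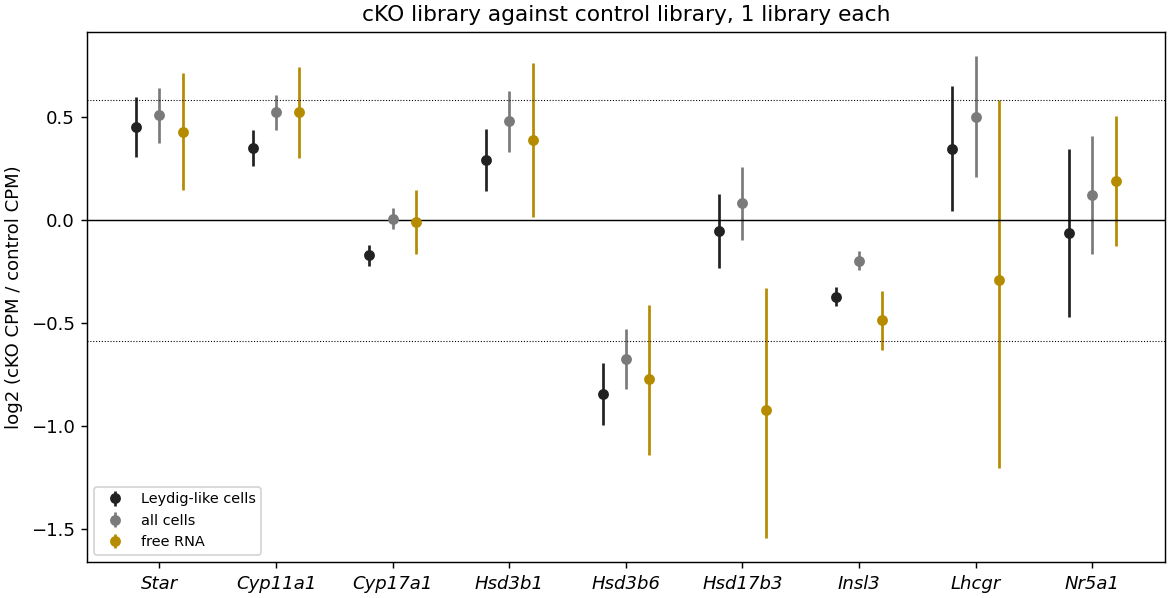
log2 ratio of cKO over control CPM for each gene in Leydig-like cells (black), all cells (grey) and free RNA (gold), with 95% intervals from counting error in 1 library each. Dotted lines mark 1.5-fold, and Hsd3b6 is the only gene below the lower line in all 3. All cells include the Leydig-like cells, which hold 95.5% (control) and 95.9% (cKO) of the Hsd3b6 UMIs there. In free RNA Hsd3b6 is not past the lower line in the other 2 ranges of UMIs per barcode.

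Outside the Leydig-like class Nr5a1 was also found in Sertoli-like cells. It had 50.2% (43.6% to 56.9%) of its control UMIs and 50.0% (42.6% to 57.4%) of its cKO UMIs in Leydig-like cells, the lowest share of the 9. It was at 13.3 CPM (57 UMIs) in control and 18.2 CPM (49 UMIs) in cKO Sertoli-like cells, above its free RNA at 2.34 and 2.67 CPM. After thinning, 4.09% (2.58% to 6.13%) and 6.63% (4.25% to 9.78%) of Sertoli-like cells had a UMI of Nr5a1, against 0.0880% and 0.234% of elongating spermatid-like cells. Median depths were 5512.5 and 6464 UMIs in Sertoli-like and 6677 and 6100 in elongating spermatid-like cells. NR5A1 is known from Sertoli cells as well as Leydig cells.

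Star had 79.0% (76.2% to 81.6%) and 85.9% (83.6% to 88.1%) of its UMIs in Leydig-like cells, below the 92.7% to 97.4% of the 7 members other than Star and Nr5a1. In early spermatocyte-like cells Star was at 3.00 CPM (61 UMIs) in the control and 2.69 CPM (37 UMIs) in the cKO, against 2.60 and 3.50 CPM in free RNA. In late spermatocyte-like cells it was at 1.66 and 2.19 CPM, below free RNA in both libraries. In spermatogonia-like cells Star was at 5.10 CPM (14 UMIs) in the control, above free RNA, and at 1.70 CPM (3 UMIs) in the cKO, below it. No class outside the Leydig-like cells held Star above free RNA in both libraries. In round and elongating spermatid-like cells it was at 0.53 to 0.65 CPM. After thinning, 1.19% (0.726% to 1.83%) of control and 0.939% (0.470% to 1.67%) of cKO early spermatocyte-like cells had a UMI of Star, against 0.242% and 0.205% of elongating spermatid-like cells.

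The balance of Star and Insl3 differed between classes. Star made up 7.13% (6.63% to 7.66%) of Star plus Insl3 UMIs in control and 11.96% (11.2% to 12.8%) in cKO Leydig-like cells. In free RNA it was 15.4% (13.5% to 17.4%) and 25.5% (22.6% to 28.6%), above the Leydig-like cells of the same library, so that free RNA did not keep the ratio of the Leydig-like cells. The elongating spermatid-like cells were near free RNA, at 15.9% (10.1% to 23.3%) and 21.7% (12.1% to 34.2%). Early spermatocyte-like cells were at 59.2% (49.1% to 68.8%) and 61.7% (48.2% to 73.9%) and late spermatocyte-like cells at 49.2% (39.8% to 58.5%) and 60.0% (49.1% to 70.2%). Sertoli-like cells were at 40.0% (21.1% to 61.3%) and 31.8% (13.9% to 54.9%), and spermatogonia-like cells at 70.0% (45.7% to 88.1%) and 50.0% (11.8% to 88.2%), on 6 to 25 UMIs of both genes. Star was not alone in such a shift. Cyp11a1 made up 42.1% (33.3% to 51.2%) and 53.2% (43.4% to 62.8%) of Cyp11a1 plus Insl3 UMIs in round spermatid-like cells, against 22.3% (20.2% to 24.6%) and 36.7% (33.6% to 39.8%) in free RNA, at levels of 1.57 and 1.88 CPM that were below its free RNA at 4.12 and 5.92 CPM. The part of free RNA in these ratios was not tested. For all 9 members the pooled germ-cell classes lay below the free RNA in both libraries, between 0.11 and 2.29 CPM. The 27 control and 15 cKO cells of other somatic types, led by macrophage genes, held 8 and 26 member UMIs, too few to rank the members.

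**Figure D5:**
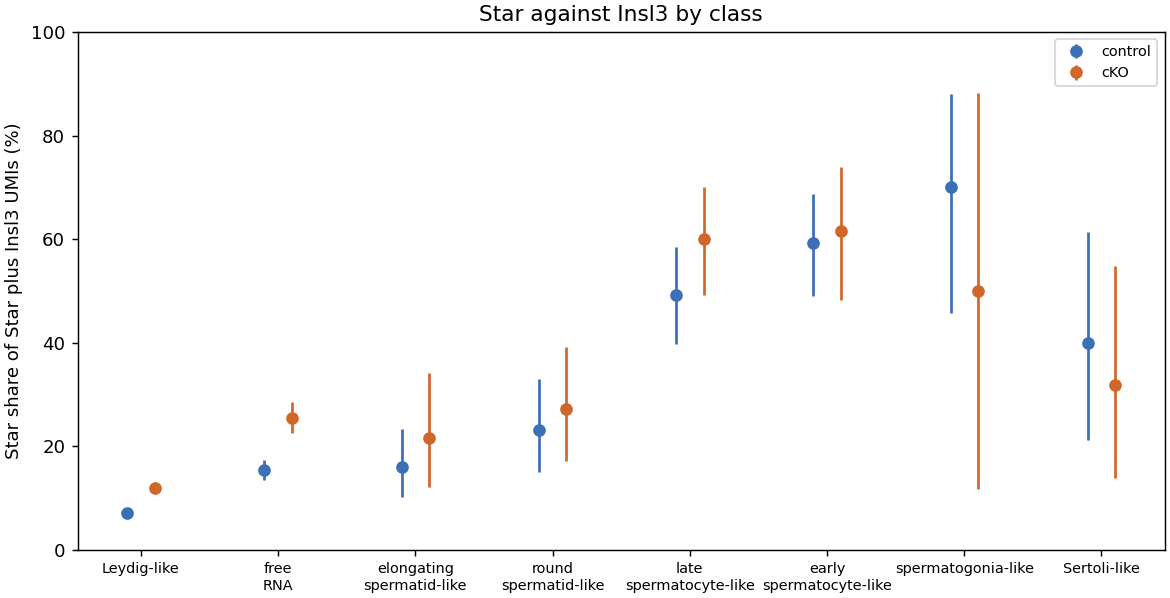
Share of Star in the sum of Star and Insl3 UMIs, in percent, for Leydig-like cells, free RNA and the other classes, with 95% exact binomial intervals, control in blue and cKO in orange. Free RNA, elongating and round spermatid-like cells lie between 15.4% and 27.1%, early and late spermatocyte-like cells between 49.2% and 61.7%, Sertoli-like and spermatogonia-like cells between 31.8% and 70.0% with wide intervals, and Leydig-like cells lowest at 7.13% and 11.96%.

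The other genes of the pathway were read from 5 lists, keeping genes with at least 10 UMIs in Leydig-like cells of each library. This limit drops genes that are low in Leydig-like cells, from the lists and from the background of all genes alike. Listed genes that it left out stood both above and below free RNA, so the counts below hold only for the genes kept. Of the electron transfer genes that feed the cytochrome P450 enzymes, 5 of 5 were over 2-fold above free RNA in both libraries, a limit that 33.4% of all 7751 genes with that many UMIs passed. Fdxr, the ferredoxin reductase that serves CYP11A1, was 65.4-fold and 45.4-fold above, and Cyb5a, which aids the lyase step of CYP17A1, 12.7-fold and 10.7-fold. The lowest of the list were Fdx1 at 7.78-fold and 8.44-fold and Cyb5b at 5.08-fold and 4.67-fold. Fdx1 was nonetheless the most abundant of them, at 899 CPM in the control and 1220 CPM in the cKO.

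Of the genes that supply cholesterol, 9 of 12 had enough UMIs and 6 of the 9 were over 2-fold above free RNA in both libraries, beside the same 33.4% of all genes. Tspo, a protein of the outer mitochondrial membrane, led at 40.4-fold and 41.4-fold. Lipe, the hormone-sensitive lipase, was below free RNA at 0.446-fold and 0.481-fold, and Acbd3 was level with it at 0.822-fold and 1.03-fold. Of the other steroid enzymes 5 of 14 had enough UMIs, and all 5 were over 2-fold above (all genes, 33.4%). Hsd17b11 stood at 79.0-fold and 50.9-fold and Hsd3b7 at 52.3-fold and 37.1-fold, while the 5-alpha-reductase genes Srd5a3 (6.05-fold and 6.83-fold) and Srd5a1 (3.15-fold and 4.75-fold) were lowest. In the same list 5 genes, Srd5a2, Cyp11b1, Hsd3b2, Hsd3b3 and Hsd3b5, had 0 UMIs in the Leydig-like cells of both libraries. At 3 UMIs of the class this allows up to 3.19 CPM in the control and 3.78 CPM in the cKO.

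Of the signalling genes 3 of the 6 with enough UMIs were over 2-fold above free RNA in both libraries (all genes, 33.4%). Gnas, the G protein subunit downstream of the luteinizing hormone receptor, was at 15.2-fold and 12.1-fold and Pde8b, a phosphodiesterase of cyclic AMP, at 9.35-fold and 13.8-fold. Prkar1a was level with free RNA at 1.09-fold and 0.911-fold, and Pde8a was below it at 0.523-fold and 0.616-fold. Of the list of transcription factors and Leydig lineage receptors, 10 of 10 with enough UMIs were over 2-fold above (all genes, 33.4%). Esr1, an estrogen receptor, was at 144-fold and 104-fold, while Nr0b1 (2.30-fold and 2.39-fold) and Gata6 (2.20-fold and 2.29-fold) were lowest.

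Between the libraries, 4 of those 10 were at least 1.5-fold lower in the cKO and 0 were higher, against 11.8% lower of all 7751 genes with at least 10 UMIs in each library. They included Ptch1, Esr1 and Nr2f2, with log2 ratios of -1.55 (-2.48 to -0.70), -0.67 (-1.23 to -0.13) and -0.60 (-1.03 to -0.17). Ptch1 rested on 52 and 15 UMIs. Of the other 4 lists, 2 genes in all were higher and 0 were lower by this limit, and list medians ran from 0.03 to 0.37 against -0.50 for the transcription factors and 0.01 over all genes.

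Genes that follow the members most closely over classes were sought among 15402 genes with at least 200 UMIs. The measure was Pearson's r of log2(CPM + 1) with the members' mean over 8 classes in 2 libraries, or 16 points, which share cells and depth within a library. The closest were Bhmt (r = 0.99), Agt, Aqp2, Lrg1, Klk1b24, Ces1d, Serpina3g, Cstdc2, Pcolce and Klk1b21 (r = 0.97). Klk1b21 and Klk1b24 are gate markers. Bhmt, an enzyme of methionine synthesis, had 96.0% of its control UMIs in Leydig-like cells at 2320 CPM, and Agt, the precursor of angiotensin, 93.9% at 3065 CPM. Pcolce was the exception, with 38.8% in the control.

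The chromatin of the same genes was read in cells taken as cKIT+ spermatogonia, a germ-cell stage. Kit, the gene of cKIT, was also counted in 82 of 101 control and 68 of 99 cKO Leydig-like cells, at 299 and 179 CPM. Whether Leydig cells were among the cKIT+ cells was not tested. The spermatogonia-like single cells held 42 member UMIs in the control and 13 in the cKO. ATAC-seq peaks, which mark open chromatin, and CUT&Tag regions of H3K27me3, the mark that KDM6A removes, came from 2 control and 3 cKO libraries each. Windows from 250 bases before to 50 after a start were taken from RefSeq for 6 members, of which Cyp11a1 has 2. The 250 bases before the start of Insl3 (chr8:71689002-71689251, plus strand) and of the upstream start of Cyp11a1 (chr9:57997774-57998023, plus strand) are given because these were the 2 windows of 7 with an ATAC peak in at least 4 of 5 libraries, a limit chosen after the values were seen, with CCAAT in capitals.
Insl3: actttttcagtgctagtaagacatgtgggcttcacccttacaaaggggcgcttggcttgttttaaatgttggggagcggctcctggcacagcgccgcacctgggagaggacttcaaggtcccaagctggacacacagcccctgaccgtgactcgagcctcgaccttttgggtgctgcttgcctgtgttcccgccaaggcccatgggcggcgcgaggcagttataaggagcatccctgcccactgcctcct
Cyp11a1: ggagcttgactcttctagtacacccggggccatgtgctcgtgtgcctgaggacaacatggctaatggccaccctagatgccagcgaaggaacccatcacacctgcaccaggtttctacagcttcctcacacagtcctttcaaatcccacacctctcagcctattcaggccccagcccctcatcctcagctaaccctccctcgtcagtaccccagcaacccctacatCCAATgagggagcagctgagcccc
The upstream start of Cyp11a1 overlapped an ATAC peak in 5 of 5 libraries, which 21.9% of all 32851 windows did. Its downstream start (window chr9:58014702-58015001) overlapped an ATAC peak in 0 of 5. An H3K27me3 region lay over each of the 2 Cyp11a1 starts in 1 of 5 libraries, cKO 3 at the upstream and cKO 2 at the downstream one. The Insl3 window overlapped an ATAC peak in 4 of 5 libraries, all but cKO 1. ATAC peaks covered 0 bases of the Insl3 gene in every library, so those peaks lay before the start. Whether they belong to Insl3 or to Jak3, which overlaps it in RefSeq, was not tested. The same window overlapped an H3K27me3 region in 5 of 5 libraries, while the IgG library had none there. Of all windows 3.52% had H3K27me3 in all 5 libraries, and 0.271% had that together with an ATAC peak in at least 4.

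H3K27me3 covered 100% of the Insl3 gene in every library, control and cKO alike, and 44.4% to 85.9% of Nr5a1. These 2 of 9 members had a region in all 5 libraries, as did 11.4% of all 21900 protein-coding genes of RefSeq. RefSeq has Insl3 overlapping Jak3, so the region cannot be given to 1 of the 2 genes. Over Star, Hsd3b1, Hsd3b6, Hsd17b3 and Lhcgr no H3K27me3 region was called in any of the 5 libraries, as over 74.2% of those genes, so that 5 of 9 members without a region is no more than that background. Of all start windows 84.5% had none. Cyp11a1 was covered over 3.37% to 18.3% of its length in 3 of 5 libraries (control 2, cKO 2 and cKO 3), and Cyp17a1 over 27.4% in cKO 2 only. The Lhcgr start overlapped an ATAC peak in 3 of 5 libraries, the Hsd3b6 start in 1, and those of Hsd3b1 and Hsd17b3, like the downstream start of Cyp11a1, in 0. These are lists called separately in each library, and 56.5% of all windows had no ATAC peak in any library.

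The 7 windows were searched on both strands for 5 motifs. The SF-1 motif AAGGNCA was in 0 of 7 and in 20.3% of all windows, TATAAA in 0 and 13.6%, TGATAA in 0 and 9.05%, and TGACGTCA in 0 and 1.79%. CCAAT was in 2 of 7 and in 37.4% of all windows, at -5 to -1 from the start of Hsd3b1 and at -24 to -20 from the upstream start of Cyp11a1. No match says only that these letters are not in this window.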

How the data were processed

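Whole-testis single cells came from 1 control and 1 cKO library made with a 3' droplet kit. The authors counted UMIs per gene and barcode with Cell Ranger 4, per the file headers, against mm10, per the submitters' processing notes, and deposited raw counts for every barcode. The libraries held 229882646 (control) and 172368722 (cKO) UMIs. Levels in Leydig-like cells rest on 941325 and 794228 UMIs, from 101 and 99 cells of 1 library each. Their intervals treat UMIs as independent and do not include the spread between cells.

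Cells, free RNA and the Leydig-like gate were set as given in the text. Other cells went to the class with the highest standardized marker level, and no doublet caller was run. CPM, Poisson, Clopper-Pearson and conditional binomial intervals and thinning to 3000 UMIs used Python 3.11.15, numpy 2.4.6, scipy 1.17.1 and pandas 2.3.3. The steps were tested on simulated data. No test between genotypes was made, as each has 1 library.

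ATAC-seq peaks were called by the authors with MACS2, whose deposited fold enrichment is a ratio over background, and H3K27me3 regions with SEACR, which gives a summed signal per region, both on mm10 per the submitters' processing notes. Only their positions were used, 1 base of overlap counting as a hit. Sequences and coordinates are from RefSeq, GRCm38.p6, the assembly of mm10. Bulk RNA files were not used here.

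The named genes are the members, for each pathway list the 2 highest and 2 lowest by the geometric mean of both ratios to free RNA, and the 10 genes most like the members; 2 genes that the rule for the lists names are not reported here. Members, lists and rules were chosen with earlier results of these data known.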

Additional observations from a re-analysis of the deposited data

How the results depend on the processing

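No paired analysis was possible because each genotype has 1 single-cell library and no test was made. Hsd3b6 stayed past 1.5-fold in Leydig-like cells in all 7 alternatives (log2 -0.97 to -0.78), as did no other member. With a minimum of 2000 UMIs the Leydig-like share in the control was 0.654%, the share of member UMIs in that class 93.9% (control) and 94.5% (cKO), and the log2 ratio of the summed members over all cells 0.0588. With 5000 UMIs the Leydig-like share was 1.13% and the share of member UMIs 96.1% in the control, and that log2 ratio was -0.0703. It was -0.0233 without shared barcodes. The summed members in Leydig-like cells were at 23431 and 21087 CPM (control and cKO) with a stricter gate of 4 genes and 20 UMIs, at 21006 and 17757 CPM with a looser gate of 2 genes and 5 UMIs, and at 24973 and 21624 CPM without cells over 2% spermatid markers. Gates from the other 8 members gave 21087 CPM and 94.9% of member UMIs in the cKO. Free RNA held 41.8 and 48.5 CPM of members in the window of 10 to under 300 UMIs, 32.8 CPM (cKO) in that of 300 to under 1000, and 37.0 and 32.2 CPM without barcodes that passed the gate, an alternative chosen after seeing the data. The mean share of Leydig-like cells with a UMI of a member went from 72.6% and 72.3% thinned to 84.8% and 82.2% without thinning. Genes past the fold limit between libraries numbered 1370 over all cells and 1103 in Leydig-like cells, 216 and 257 at 2-fold (with 0 members), and 679 and 170 with at least 200 UMIs. Alternatives for the Hsd3b1 and Hsd3b6 pair were also chosen after seeing the data. With 80% in place of 90% from 1 gene, the control's share of one-gene cells was 71.1%, and in 6 other settings it ran from 53.2% to 61.0% (control) and 67.0% to 68.7% (cKO). Where a cause is not given by the setting itself it was not tested.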
